A study of Drosophila melanogaster with 12 samples.

Results

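The experiment described here switched on the Activin receptor Baboon in the muscles of Drosophila melanogaster larvae and asked which transcripts of the body wall respond. The carcass, which is the body wall with its muscle and epidermis after the gut was dissected out, came from third-instar larvae of the late foraging stage. Larvae of the genotype tub-Gal80ts/+;MhcGal4/baboACT carried the yeast activator Gal4 under the control of the muscle driver MhcGal4, and baboACT, an activated form of the receptor. Reference larvae of the genotype tub-Gal80ts/+;MhcGal4/+ lacked baboACT. Both groups carried tub-Gal80ts, a temperature-sensitive inhibitor of Gal4, both were raised on standard vial food, and both spent 12 h at 30 °C before RNA extraction, so heat and Gal4 are shared. There were 3 libraries per group, 6 of the 12 in the series. The labels do not say whether they came from separate animals or pools of larvae, so the deposited p-values may measure technical spread in part.

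The members are genes. The table of this experiment has 13650 rows, each with 1 FPKM (fragments mapped to a gene, scaled by transcript length and by all mapped fragments) per group. Of these rows, 8042 had a gene name that occurs once, an FPKM above 0 in both groups and a mean FPKM of at least 1. The authors tested 8018 of them, which are the genes measured in what follows. Each has 1 value for MhcGal4 and 1 value for MhcGal4>baboACT, so no FPKM below has an SD or an n, and the depth behind it is unknown. Fold changes are log2 ratios of baboACT over MhcGal4. A gene is said to have risen, fallen or been called where its q, a p-value adjusted over all genes, in the authors' deposited table was under 0.05. A gene said to have risen or fallen without a printed q was at 0.000217 in that table, the lowest value it holds. A difference of 1 on the log2 scale is a doubling. Genes were named by a rule of size, q and abundance within gene lists, but REG, RpL40, Atg9, TpnC41C, the GluRIIE,KaiRIA row, nvd, sad, spok, shd, Cyp18a1, jhamt, sage, CG17325 and CG40198 were chosen after their values were seen, as were the markers given at or near 0. Act5C, Act42A and tmod, also outside that rule, are named because they rose.

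As background, Activin ligands bind Baboon together with a type II receptor, and the active receptor phosphorylates Smox, a Smad protein that enters the nucleus with the partner Medea and acts on target genes. In fly larvae this branch of TGF-beta signaling is known for roles in muscle growth, in the neuromuscular synapse, in metabolism and in the production of the molting steroid ecdysone. The activated receptor signals without ligand. The driver takes its name from Mhc, a myosin heavy chain gene of muscle, and the carcass also holds epidermis and whatever other tissue adheres to it, so a transcript that changed may lie in muscle or outside it.

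With activated Baboon, 2330 genes rose and 1182 fell, which is 29.1% and 14.7% of the genes measured. Counts in the gene lists below are to be read beside these shares. Most changes were small. Of the genes called, 367 rose by at least 1 on the log2 scale (4.58% of genes measured) and 139 fell by as much (1.73%). The median gene stood at 0.08, and quantile normalization of the groups moved it to -0.04, so most list medians near 0 are given on both scales. The direction depended on how abundant a transcript was. Among the 983 genes with a mean of 1 to 3 FPKM, 14.2% rose and 12.0% fell, and among the 1284 genes with 30 to 100 FPKM 44.7% rose and 12.9% fell. Among the 155 genes at 1000 FPKM and over the balance was turned, with 17.4% higher and 60.6% lower and a median of -0.25. Of the 94 abundant genes that fell, 66 encode ribosomal proteins, 10 proteins of the sarcomere and 2 subunits of respiration. Outside those lists 25 of 62 abundant genes rose and 16 fell.

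**Figure D1:**
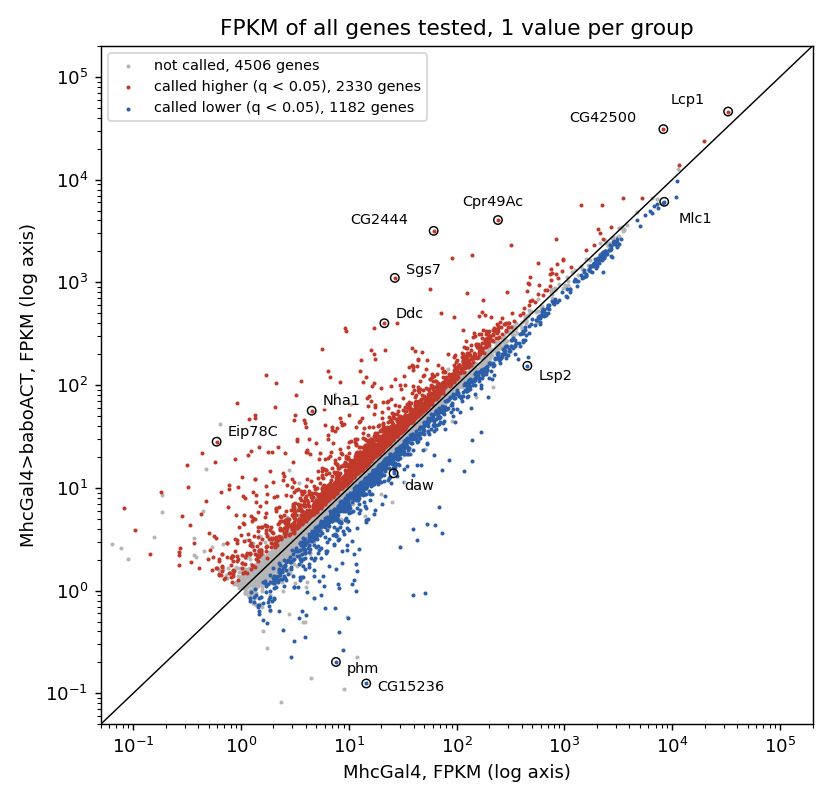
FPKM in MhcGal4 (horizontal, log axis) against FPKM in MhcGal4>baboACT (vertical, log axis) for the 8018 genes tested, 1 point per gene, with the line of equality. Red points were called higher, blue points lower and grey points neither; 13 genes are ringed and named, among them Mlc1, which lies just below the line.

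**Figure D2:**
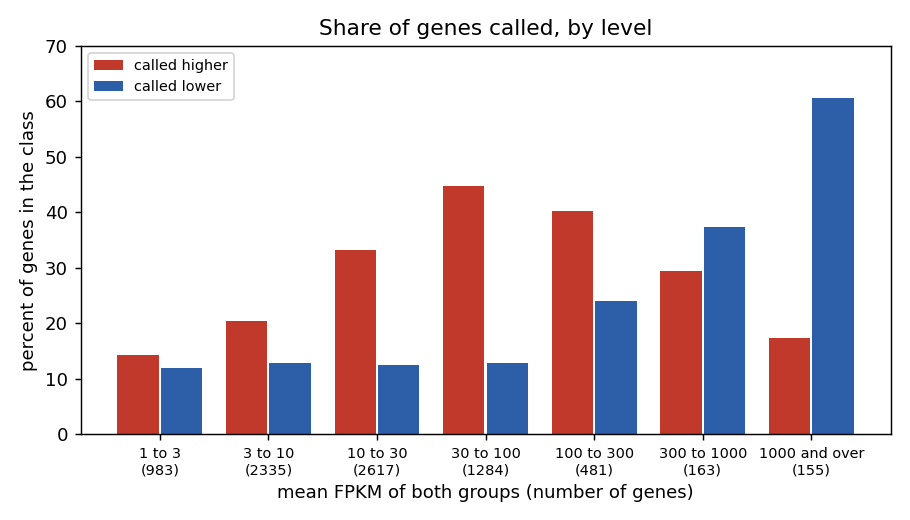
Percent of genes called higher (red) and lower (blue) in each class of mean FPKM, with the number of genes under each class. The share called higher is greatest at 30 to 100 FPKM, and the share called lower reaches 60.6% at 1000 FPKM and over.

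The FPKM of all rows summed to 755064 in MhcGal4 and to 812782 in baboACT. The muscle label was read against fixed markers. Mlc1 stood at 8429 and 6080.5 FPKM, up (troponin T) at 8149.7 and 5959 FPKM, Tm2 at 5013 and 3516 FPKM and sls at 60.2 and 45.6 FPKM in MhcGal4 and baboACT. The first 3 are among the most abundant transcripts of both groups. Of the other muscle markers Act57B is listed at 0 in both groups, and Mhc is listed at 0 in MhcGal4 and at 3350.2 FPKM in baboACT. The myosin light chain gene Mlc2 is listed at 0 in MhcGal4 as well. An exact 0 for genes that every larval muscle uses can be a failed estimate, so these rows carry no fold. Osiris genes of the epidermis had no measured row, and the table holds no transcripts of the mitochondrial genome.

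The Activin and BMP pathway was little changed in its receptors and Smads and more in a ligand and in enzymes that process ligands. Of 26 measured members 8 rose and 2 fell, with a median of 0.10 that turned to -0.04 under quantile normalization. The share that rose, 30.8%, is near the 29.1% of all genes measured, and 7.69% fell against 14.7%. Among ligands, daw, which encodes the Activin-like Dawdle, fell from 26 to 13.9 FPKM (log2 fold change -0.91), on 2L from 2805518 to 2812147 in the coordinates of the table, whose build is not named. The ligand gene mav rose from 39.6 to 51.7 FPKM (0.38), and the BMP genes dpp (6.80 and 6.35 FPKM, q = 0.418) and gbb (33.9 and 32.3 FPKM, q = 0.497) both missed the threshold in the authors' deposited table. Actbeta, a further Activin ligand, was under the minimum at 0.243 and 0.251 FPKM. The largest rise of the list was in tok, which encodes Tolkin, a metalloprotease known to cleave the Dawdle precursor, from 4.04 to 22.3 FPKM (2.47). Its neighbor and relative tld, or Tolloid, rose from 1.00 to 3.46 FPKM (1.79). These genes lie side by side on 3R, tok from 20545419 to 20574854 and tld from 20575456 to 20579234.

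Among receptors, babo itself, on 2R, rose from 13.2 to 15.6 FPKM (0.23, q = 0.00424 in the authors' deposited table), and the sources used here do not say whether its row counts transgene reads. The BMP receptor gene tkv rose from 23.4 to 31.7 FPKM (0.44, q = 0.027 in the authors' deposited table). The type II receptor genes put (25.5 and 26.5 FPKM, q = 0.571) and wit (3.58 and 3.80 FPKM, q = 0.556) and the BMP receptor gene sax (9.39 and 10.2 FPKM, q = 0.301) missed the threshold in the authors' deposited table. Nor were the Smad genes called: Smox stood at 29.8 and 32.5 FPKM (q = 0.139), Mad at 19.7 and 21.8 FPKM (q = 0.105), Med at 11.4 and 12.6 FPKM (q = 0.797) and the inhibitory Dad at 9.32 and 8.70 FPKM (q = 0.36). Of genes around the pathway, cbt, a zinc finger transcription factor, rose from 72.8 to 106 FPKM (0.54), and cv-2, which binds BMPs outside the cell, from 5.94 to 7.66 FPKM (0.37, q = 0.000411 in the authors' deposited table). The secreted CG32372, named ltl in the current annotation, fell from 15.3 to 9.32 FPKM (-0.72). Of the rest, emc, an inhibitor of helix-loop-helix factors, rose from 33.0 to 42 FPKM (0.35), and the lowest member not called was the BMP antagonist gene sog at -0.19 (q = 0.0536 in the authors' deposited table).

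Genes for the breakdown of proteins were higher in nearly every member of the proteasome. All 13 measured subunits of the proteasome core, the barrel that degrades tagged proteins, rose, by 0.45 to 0.74 on the log2 scale. Prosalpha7 went from 188 to 315 FPKM (0.74), CG17331, the Prosbeta4 gene, from 239 to 394 FPKM (0.72) and Pros25, the most abundant, from 286 to 406 FPKM (0.51). Of 25 regulatory and assembly genes 23 rose and 1 fell (median 0.63, 0.47 under quantile normalization). Rpn3 rose from 112 to 204 FPKM (0.87) and CG5384, the Usp14 deubiquitinase gene, from 115 to 202 FPKM (0.81). The 1 member that fell, REG, encodes an activator cap of another kind, and went from 59.7 to 48.8 FPKM (-0.29, q = 0.000782 in the authors' deposited table). Apart from REG, every regulatory and assembly gene measured had a positive fold, whatever its level. Of related genes that are scarce in carcass, Rpt6R rose by more than any subunit, from 0.654 to 9.05 FPKM (3.79). Rpt3R went from 0.716 to 1.32 FPKM (0.88, q = 0.0304 in the authors' deposited table), a fold near that of Rpn3. The related CG9588 stood at 42.4 and 54.6 FPKM (0.36, q = 0.0749 in the same table). Of the 18 rows of that list 14 were not tested.

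Genes that tag and extract substrates were higher in most members. Of 44 ubiquitin and p97 genes 28 rose and 2 fell (median 0.27, 0.09 under quantile normalization). slmb, an F-box protein that selects substrates, rose from 17.5 to 30.6 FPKM (0.80). Rad23, a shuttle to the proteasome, rose from 113 to 189.8 FPKM (0.74), and TER94, the p97 unfoldase that extracts proteins from complexes, from 222 to 356 FPKM (0.68). Both falls were in rows for ubiquitin fused to ribosomal proteins, RpL40 from 1913 to 1675 FPKM (-0.19, q = 0.0481) and the shared row of Ip259 and RpS27A from 2909 to 2541 FPKM (-0.19, q = 0.0488 in the authors' deposited table), so they belong to the ribosomal list as well. Under quantile normalization the log2 fold of RpL40 was 0.

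Lysosomal and autophagy transcripts were also mostly higher. Of 18 subunits of the V-ATPase, the proton pump of the lysosome, 15 rose and 0 fell (median 0.31, 0.13 under quantile normalization). Vha16, a subunit of its membrane sector, went from 329 to 501 FPKM (0.61). Of 33 autophagy and lysosome genes 20 rose and 1 fell (median 0.28, 0.16 under quantile normalization). Atg7, the enzyme that starts the lipid conjugation of Atg8, went from 6.43 to 32.7 FPKM (2.35), and bchs, a large adaptor of aggregate clearance, from 2.89 to 8.35 FPKM (1.53). The other 18 members that rose did so by at most 0.59, the value of CG10992, the cathepsin B gene. Atg8a, the most abundant autophagy gene, rose from 411 to 505 FPKM (0.30, q = 0.000782 in the authors' deposited table). Atg9, the membrane protein of early autophagy, was the 1 member that fell, from 71.4 to 55.4 FPKM (-0.37).

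Chaperones gave a mixed picture. Of 9 small heat shock genes 6 rose and 2 fell. Hsp26 went from 14.6 to 121 FPKM (3.05), Hsp67Bc from 0.429 to 5.57 FPKM (3.70) and Hsp23 from 71.6 to 502 FPKM (2.81). The most abundant of the family, l(2)efl, a small heat shock protein of muscle, fell from 7216 to 5736 FPKM (-0.33, q = 0.000411 in the authors' deposited table). Both groups had the same 12 h at 30 °C. Of 26 larger chaperones 10 rose and 4 fell (median 0.11, -0.06 under quantile normalization). The inducible Hsp68 rose from 44.2 to 179 FPKM (2.02) and Hsp83, the fly Hsp90, from 123 to 230.2 FPKM (0.90), while Hsc70-4, the constitutive Hsp70, fell from 1981 to 1381 FPKM (-0.52). In the endoplasmic reticulum 29 of 52 folding and export genes rose and 0 fell (median 0.23, 0.05 under quantile normalization). Gp93, the Hsp90 of that compartment, rose from 99.1 to 167 FPKM (0.75) and its stress sensor Atf6 from 19.9 to 29.1 FPKM (0.55).

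**Figure D3:**
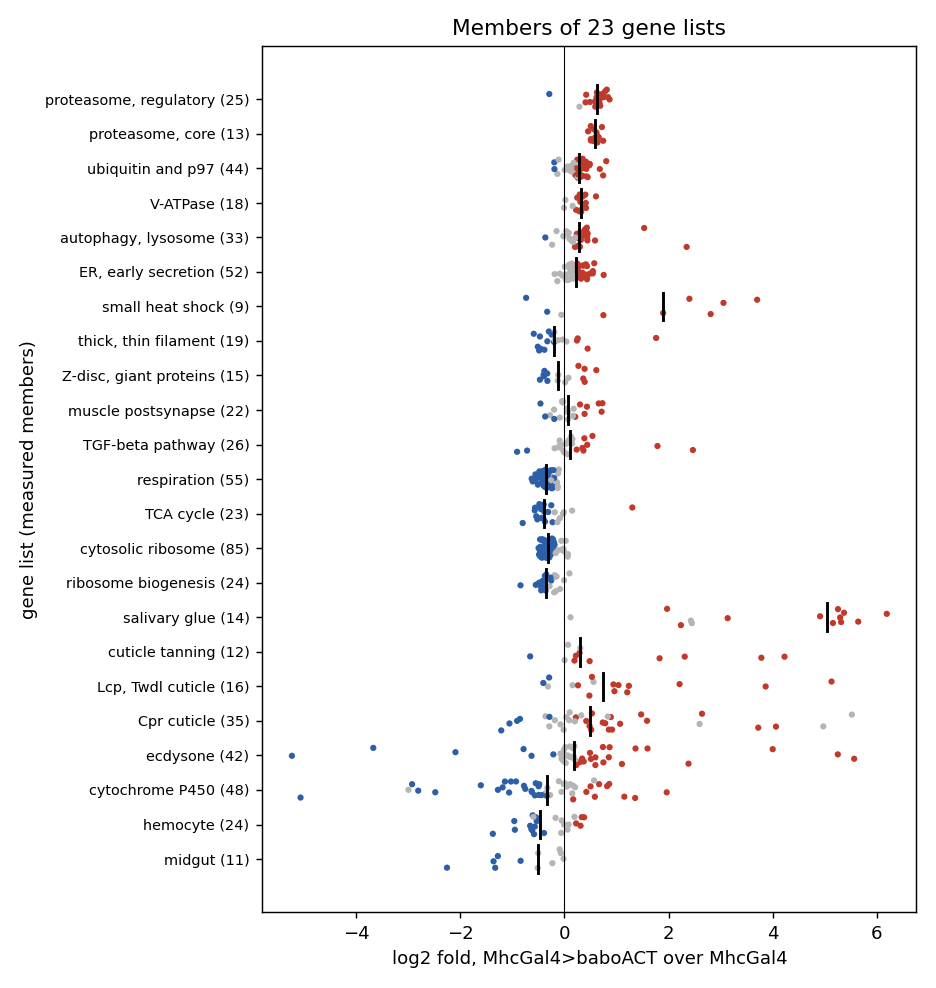
Log2 fold change (baboACT over MhcGal4, horizontal) of every measured member of 23 gene lists (rows, with the number of members), red where called higher, blue where called lower and grey otherwise, with a black bar at the median. Most proteasome members lie around 0.6, those of respiration all lie below 0, most of those of the ribosome do too, and glue members mostly near 5.

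Transcripts of the sarcomere, the contractile unit, were mostly lower. Of 19 thick and thin filament genes 10 fell and 4 rose (median -0.20), and the summed level of these 19 went from 60976 to 48888 FPKM. The list has 26 rows, of which 7 were not tested and are not in the sum. Mhc, listed higher in baboACT above but given no fold, is not in the sum either, and nor is Mlc2, which also has no fold. Prm, the paramyosin of the thick filament, fell from 2698 to 1793 FPKM (-0.59). Tm2 and Tm1, the tropomyosins of the thin filament, fell from 5013 to 3516 FPKM (-0.51) and from 7438 to 5311 FPKM (-0.49). The essential light chain gene Mlc1 fell from 8429 to 6080.5 FPKM (-0.47). The 4 members that rose were the cytoplasmic actins Act5C and Act42A (q = 0.0493), the pointed-end cap tmod (q = 0.00909) and TpnC41C, a troponin C that went from 0.673 to 2.28 FPKM (q = 0.021 in the authors' deposited table). In bulk tissue, less muscle in the sample and less RNA per muscle cannot be told apart. Of 15 Z-disc and giant protein genes 5 rose and 6 fell: sls, the fly titin, fell from 60.2 to 45.6 FPKM (-0.40), while jbug, a filamin-type actin crosslinker, rose from 46.5 to 71.0 FPKM (0.61).

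Genes of muscle attachment, identity and excitability moved less uniformly. Of 23 attachment genes 8 rose and 1 fell (median 0.07, -0.05 under quantile normalization). The integrin subunit gene scb rose from 13.7 to 19.2 FPKM (0.48), and the row that holds Tsp, a thrombospondin of tendon matrix, together with CG11327 from 15.5 to 25 FPKM (0.69). Of 14 identity and fusion genes 4 rose and 2 fell (median 0.11, -0.02 under quantile normalization), among them how, an RNA-binding protein of muscle and tendon, which rose from 71.1 to 98.2 FPKM (0.47). The identity list, with 28.6% higher and 14.3% lower, was near the 29.1% and 14.7% of all genes measured. Of 27 calcium handling and channel genes 10 rose and 3 fell (median 0.13, 0.06 under quantile normalization). The potassium channel genes Sh and slo rose from 3.09 to 6.03 FPKM (0.96) and from 3.81 to 6.84 FPKM (0.84). The genes of store-operated calcium entry rose, the sensor Stim from 31.1 to 45.3 FPKM (0.54) and the channel olf186-F, or Orai, from 13.7 to 19.1 FPKM (0.48). The calcium pump gene Ca-P60A, the most abundant of the list, stood at 1348 and 1187 FPKM (q = 0.0745 in the authors' deposited table).

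At the neuromuscular synapse the glutamate receptor subunits on the muscle side parted ways. Larval receptors hold shared subunits and either GluRIIA or GluRIIB. GluRIIB rose from 6.71 to 11.1 FPKM (0.73) and the row of CG14017 and GluRIIA from 10.3 to 16.3 FPKM (0.66). The shared subunits differed: GluRIIC fell from 80.0 to 58.1 FPKM (-0.46), while the GluRIIE,KaiRIA row, KaiRIA being GluRIID, rose from 41.3 to 67.7 FPKM (0.71, q = 0.0061 in the authors' deposited table). Over the whole postsynapse list 7 of 22 rose and 3 fell (median 0.06, -0.09 under quantile normalization). These shares, 31.8% and 13.6%, are near those of all genes measured, 29.1% and 14.7%.

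Transcripts for making ribosomes and for respiration were lower in nearly every member, by small amounts. Of 85 cytosolic ribosomal protein rows 74 fell and 0 rose, with a median of -0.32 (-0.18 under quantile normalization) and a summed level that went from 191637 to 158328 FPKM. The largest fall was in RpL8, from 1793 to 1271 FPKM (-0.50), and RpL41, the most abundant, fell from 11139 to 9622 FPKM (-0.21, q = 0.0317 in the authors' deposited table). Of 24 biogenesis genes 15 fell and 0 rose (median -0.36), with Bka from 10.5 to 5.84 FPKM (-0.84). Ribosomal proteins of mitochondria went 3 up and 14 down among 72 (median -0.18). The tRNA synthetases went 1 up and 5 down among 21, and translation factors 6 up and 6 down among 32, where eIF4G, the scaffold of cap-dependent initiation, rose from 81.5 to 109 FPKM (0.42) and Ef1gamma fell from 1459 to 1106 FPKM (-0.40).

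Of 55 nuclear genes of respiration 48 fell and 0 rose, and every measured member had a negative log2 fold, from -0.63 to -0.11. CG3731, a core subunit of complex III, fell from 428 to 277 FPKM (-0.63) and ATPsyn-beta, the most abundant, from 2289.6 to 1782 FPKM (-0.36). Of 23 genes of the TCA cycle and its entry 16 fell and 1 rose (median -0.39). The single rise was in CG1516, the pyruvate carboxylase gene that feeds the cycle from pyruvate, from 39.4 to 97.4 FPKM (1.3). Mitochondrial import, carrier and quality genes went 1 up and 10 down among 32, with the row of Ant2 and sesB, the ADP/ATP carriers, from 2764 to 1756 FPKM (-0.65).

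Sugar and lipid genes showed single large changes within lists whose medians moved less. The glycolytic and lipid lists were called lower more often, at 36.8% and 31.0%, than all genes measured, at 14.7%. They were called higher less often, at 10.5% and 10.3% against 29.1%. Of 19 glycolytic genes 2 rose and 7 fell (median -0.15, -0.27 under quantile normalization). Gapdh2 rose from 2139 to 2996 FPKM (0.49) beside Gapdh1 at 3493 and 3193 FPKM (q = 0.231 in the authors' deposited table). Lactate dehydrogenase, ImpL3, stood at 768 and 773 FPKM (q = 0.947 in the same table). In the trehalose and glycogen list 5 of 16 rose and 5 fell (median 0.03, -0.14 under quantile normalization). CG5171, a gene of the trehalose phosphatase family, rose from 57.1 to 854 FPKM (3.90), and its relative CG5177, already abundant, from 1889 to 2289.9 FPKM (0.28, q = 0.00353 in the authors' deposited table). The sugar transporter gene Glut1 rose from 6.02 to 19.3 FPKM (1.68). In the pentose phosphate and redox list 7 of 20 rose and 3 fell (median -0.0005, -0.18 under quantile normalization). The first and the third enzyme of that pathway, Zw and Pgd, rose from 9.51 to 19.4 FPKM (1.03) and from 29 to 62.0 FPKM (1.09).

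Of 29 lipid genes 3 rose and 9 fell (median -0.09, -0.24 under quantile normalization). The 3 that rose were mdy, which completes triglyceride synthesis, from 5.65 to 15.7 FPKM (1.47), the fatty acid elongase gene Baldspot from 48.9 to 123 FPKM (1.33) and ATPCL, which makes cytosolic acetyl-CoA, from 50.3 to 126 FPKM (1.32). Amino acid transporters went 4 up and 6 down among 12: slif rose from 8.69 to 16.3 FPKM (0.91), CG1139 from 29.8 to 101 FPKM (1.76), and mnd fell from 200.2 to 117 FPKM (-0.78). Insulin and TOR genes went 11 up and 6 down among 40, with a median of 0.02 that turned to -0.10 under quantile normalization. Those shares, 27.5% and 15%, are near the 29.1% and 14.7% of all genes measured. ImpL2, a secreted protein that binds insulin-like peptides, rose from 200.2 to 336 FPKM (0.75), the kinase genes sgg and Akt1 rose from 56.0 to 82.7 FPKM (0.56) and from 24.2 to 33.7 FPKM (0.48), and dm, the fly Myc, fell from 31.1 to 24.3 FPKM (-0.35). Thor, the 4E-BP repressor of translation and the most abundant of the list, fell from 1244 to 1082 FPKM (-0.20, q = 0.0397 in the authors' deposited table).

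Many genes that respond to ecdysone were higher, while several that make its precursor were lower. Of 42 ecdysone genes 19 rose and 6 fell (median 0.18, 0.09 under quantile normalization). The nuclear receptor genes Eip78C, CG42527 (Hr4 in the current annotation) and Hr46 (Hr3) rose from 0.594 to 28.13 FPKM (5.56), from 0.103 to 3.93 FPKM (5.25) and from 0.142 to 2.27 FPKM (4.0). All 3 stood under 1 FPKM in MhcGal4. Steroid synthesis runs in the prothoracic gland, an endocrine organ that is neither muscle nor epidermis. Its enzyme gene phm fell from 7.6 to 0.202 FPKM (-5.23). Of the same pathway, nvd fell from 2.88 to 0.226 FPKM (-3.67, q = 0.0108 in the authors' deposited table) and sad from 5.31 to 1.24 FPKM (-2.09), while spok went from 9.11 to 0.111 FPKM without passing the threshold (q = 0.0938 in the same table). In contrast shd, the enzyme that converts ecdysone to its active form in peripheral tissue, rose from 6.43 to 19.4 FPKM (1.6), and Cyp18a1, which inactivates the hormone, fell from 54.6 to 35.2 FPKM (-0.63). jhamt, an enzyme of juvenile hormone synthesis in the neighboring corpora allata, is listed at 1.28 FPKM in MhcGal4 and at 0 in baboACT. How much of these glands adhered to the carcasses was not tested.

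Salivary glue genes, which ecdysone turns on in the salivary gland of late larvae, had the largest rises of the lists with at least 5 measured members. Of 14 measured members 11 rose and 0 fell (median 5.03), and their summed level went from 100.1 to 2469 FPKM. The neighboring genes Sgs8, Sgs7 and Sgs3 on 3L, from 11502067 to 11506503, rose in near proportion: 5.59 to 222 FPKM (5.31), 26.7 to 1105 FPKM (5.37) and 9.15 to 359 FPKM (5.30). CG7587, named Sgs5bis in the current annotation, rose from 1.70 to 124 FPKM (6.19), and Eig71Ee, which the gland also expresses, from 3.63 to 109 FPKM (4.91). The salivary gland regulator sage rose from 1.3 to 5.09 FPKM (1.97). The share of salivary gland RNA in either group was not tested.

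**Figure D4:**
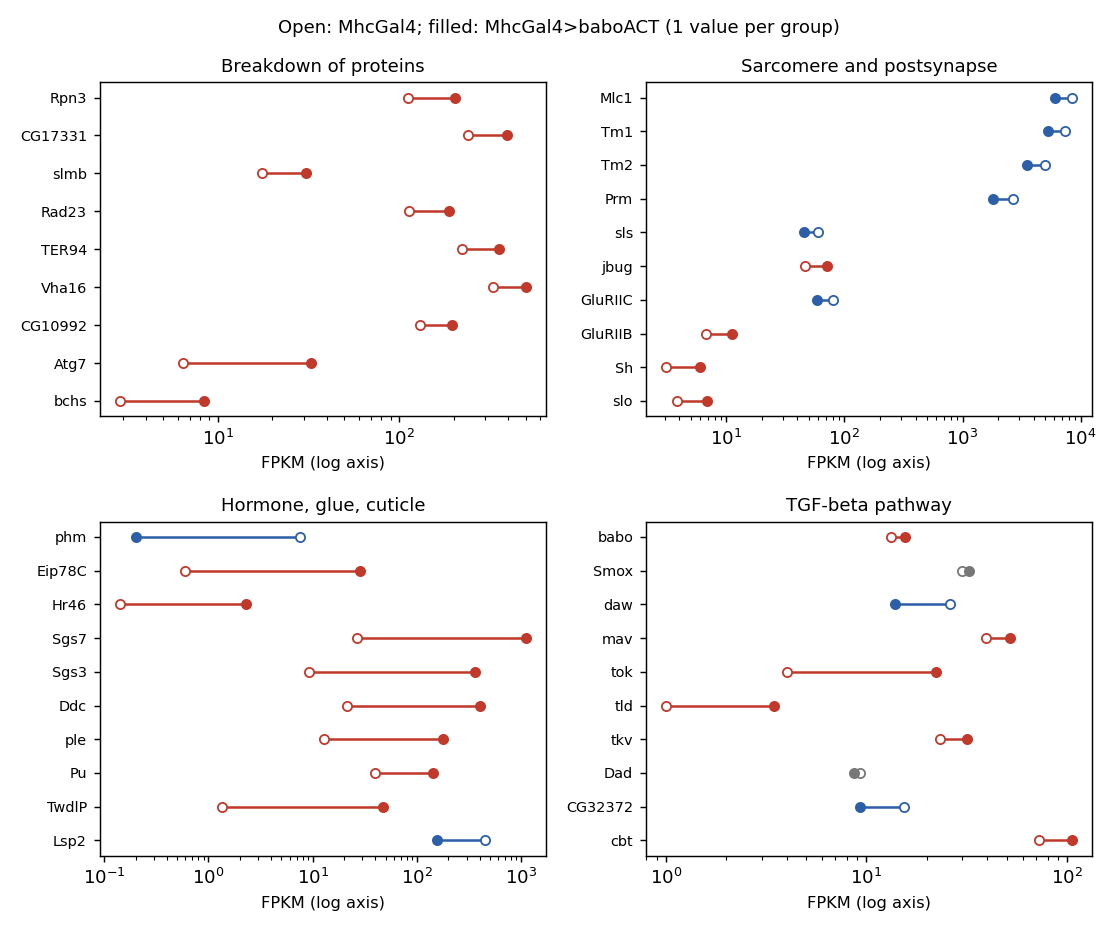
FPKM (log axis) in MhcGal4 (open circles) and MhcGal4>baboACT (filled circles) for named genes in 4 panels, joined by a line that is red where the gene was called higher, blue where called lower and grey where not called. Sgs7, Ddc and Eip78C shift by more than 10 times, while the sarcomere genes and Rpn3 shift by a small part of that.

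The cuticle program of the epidermis was mostly higher. Of 35 Cpr cuticle genes 16 rose and 5 fell (median 0.48), and of 16 Lcp and Twdl genes 11 rose and 2 fell (median 0.75). Lcp1, the most abundant transcript of the table in both groups, rose from 32967 to 45953 FPKM (0.48). Cpr49Ac went from 242 to 4041 FPKM (4.06), Lcp65Ag1 from 27.8 to 405 FPKM (3.86) and TwdlP from 1.36 to 47.6 FPKM (5.13). Against this, Cpr47Eb fell from 137 to 59.2 FPKM (-1.21). Enzymes that tan cuticle rose in 8 of 12 cases and fell in 1 (median 0.30). The genes of dopamine synthesis rose: Pu, which makes the cofactor, from 39.8 to 141 FPKM (1.83), ple, tyrosine hydroxylase, from 12.9 to 177 FPKM (3.78), and Ddc, dopa decarboxylase, from 21.4 to 400.1 FPKM (4.23). The 1 tanning gene that fell was CG8193, the prophenoloxidase PPO2 of crystal cells in the blood, from 92.3 to 58.4 FPKM (-0.66). Of 9 yellow-family genes 5 rose and 0 fell (median 0.62), with yellow-f, a dopachrome conversion enzyme, from 1.94 to 22.1 FPKM (3.51). Of 32 chitin genes 12 rose and 1 fell (median 0.15, -0.01 under quantile normalization), led by the molting chitinase gene Cht5 from 22.5 to 69.0 FPKM (1.61).

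Detoxifying enzymes parted by family. Among 48 cytochrome P450 genes 23 fell and 10 rose (median -0.34), with Cyp4p2 from 8.91 to 0.266 FPKM (-5.07, q = 0.000599 in the authors' deposited table) and Cyp6a2 from 8.13 to 1.07 FPKM (-2.93). Cyp4g1, an abundant enzyme of oenocytes that helps make cuticular hydrocarbons, fell from 1067 to 720.2 FPKM (-0.57). Glutathione transferases rose in 6 of 12 cases and fell in 0 (median 0.37), with GstE3 from 6.69 to 20.6 FPKM (1.62). UDP-glycosyltransferases went 1 up and 2 down among 6. Among targets of the oxidative stress factor CncC 10 of 17 rose and 1 fell (median 0.41), with Gclc, the rate-limiting enzyme of glutathione synthesis, from 4.09 to 6.13 FPKM (0.58). That list also holds Cyp6a2, its single fall, and Zw.

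Genes of injury signaling were more often higher, and those of the matrix around tissues more often lower. In the JNK, JAK/STAT and injury list 18 of 37 rose and 3 fell (median 0.19, 0.07 under quantile normalization). Pvf1, a growth factor of the PDGF and VEGF family, rose from 3.1 to 9.10 FPKM (1.55). The matrix metalloproteinase genes Mmp1 and Mmp2 rose from 13.5 to 34.0 FPKM (1.33) and from 2.12 to 5.91 FPKM (1.48), and CG10176, the TNF receptor gene grnd, from 16.7 to 28.13 FPKM (0.76). Of 19 basement membrane genes 9 fell and 6 rose (median -0.28). The nidogen gene Ndg fell from 92.1 to 50.1 FPKM (-0.88) and BM-40-SPARC, a collagen-binding matrix protein, from 43.0 to 27.8 FPKM (-0.63). Both metalloproteinases are members of that list too and are 2 of its 6 rises.

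Blood cell markers were more often lower than higher. Of 24 measured hemocyte markers 12 fell and 4 rose (median -0.46), and 17 had a negative log2 fold. Their summed level was 836 FPKM in MhcGal4 and 750 FPKM in baboACT, a smaller shift than that of the median marker. Of these markers nimC3 and nimB4 fell from 6.25 to 2.41 FPKM (-1.38) and from 23.1 to 12.0 FPKM (-0.95). Hemocytes also make basement membrane: 3 genes (vkg, Cg25C and Pxn) are in both lists, and their part in the fall of either list was not tested. Of 18 antimicrobial and stress peptide genes 3 rose and 4 fell (median -0.97). Dro, drosocin, fell from 61.3 to 20.7 FPKM (-1.56) and AttA, an attacin, from 9.56 to 2.5 FPKM (-1.93), while dro5, of the drosomycin family, rose from 6.75 to 121 FPKM (4.16). Immune recognition genes went 12 up and 2 down among 30 (median 0.16, -0.01 under quantile normalization). The Toll pathway kinase gene pll rose from 9.53 to 17.2 FPKM (0.86) and the serine protease gene SPE, which activates the Toll ligand, fell from 4.72 to 1.6 FPKM (-1.56).

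Markers of other tissues show what else the carcasses held. Of 30 midgut rows 11 were measured, 5 fell and 0 rose (median -0.51). Their summed level was 410 FPKM in MhcGal4 and 145 FPKM in baboACT, and 5 rows, among them the amylase gene Amy-p, are listed at 0 in both. The serine protease genes Jon65Aiii and Jon65Aiv fell from 169 to 35.3 FPKM (-2.26) and from 197 to 76.8 FPKM (-1.36). Fat body genes went 4 up and 7 down among 15, with sums of 2544 and 1914 FPKM. The storage protein genes Lsp2 and Lsp1beta fell from 453 to 154 FPKM (-1.56) and from 459.6 to 187 FPKM (-1.30), while Fbp1, a larval serum protein receptor, rose from 10.4 to 28.8 FPKM (1.47). Oenocyte markers went 1 up and 4 down among 9, and the desaturase gene Fad2 of adult female oenocytes is listed at 0 in both groups. Renal tubule genes went 1 up and 1 down among 5 (median -0.18). Nha1, a sodium and proton exchanger, rose from 4.53 to 56.4 FPKM (3.64), and w, a pigment precursor transporter, fell from 2.42 to 1.6 FPKM (-0.59, q = 0.00323 in the authors' deposited table). Uro, a defining marker of that organ, stood at 0.203 and 0.347 FPKM. Unequal remains of gut, fat body or oenocytes and a change in their expression cannot be told apart here.

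The remaining tissue, cell cycle and other lists are given by their counts. Neuronal and glial markers went 2 up and 1 down among 9, and brp, of presynaptic active zones, stood at 0.339 and 0.236 FPKM. Tracheal genes went 2 up and 1 down among 12, imaginal disc genes 4 up and 1 down among 18, and heart and nephrocyte genes 2 up and 3 down among 8. The Hox gene Ubx rose from 6.88 to 11.8 FPKM (0.79). Of 5 testis genes 1 fell, Mst87F, from 11.8 to 1.56 FPKM (-2.92, q = 0.000599 in the authors' deposited table), and 6 rows of that list are at 0 in both groups. Replication and mitosis genes went 3 up and 10 down among 44, with Mcm6 of the replicative helicase from 9.79 to 7.65 FPKM (-0.36, q = 0.000411 in the authors' deposited table). Histone and chromatin genes went 0 up and 2 down among 26, spliceosome genes 1 up and 0 down among 30, and sex and dosage genes 1 up and 3 down among 12. Tubulins and motors went 10 up and 4 down among 20 (median 0.15, -0.01 under quantile normalization), serpins 7 up and 2 down among 14, and lysozyme and odorant-binding genes 3 up and 6 down among 19.

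The largest changes by size lay mostly in genes known only by number. The 10 largest rises began with CG9021, from 0.0814 to 6.36 FPKM (6.29, q = 0.0079 in the authors' deposited table), CG7587 and CG17386, from 0.921 to 66.5 FPKM (6.18). CG2444 rose from 61.2 to 3172 FPKM (5.69) and is among both the largest folds and the largest gains in level. The greatest gain in FPKM was in CG42500, on 3R from 9977933 to 9978276, from 8277 to 30988 FPKM (1.90), followed by Lcp1 and CG17105, from 1433 to 5668 FPKM (1.98). The deepest declines among called genes were those of CG15236, from 14.5 to 0.125 FPKM (-6.86), CG10912, from 50.6 to 0.956 FPKM (-5.73), and CG9568, from 39.4 to 0.898 FPKM (-5.46). The ratio of spok, which was not called, was -6.36. The greatest loss in FPKM was in CG17325, from 10804 to 6781 FPKM (-0.67), followed by Mlc1, up and Tm1. Also called, though listed at 0 in MhcGal4, were CG12506 at 10.4 FPKM, CG42656 at 8.20 FPKM and CG34296 at 4.85 FPKM in baboACT, and no fold is given for them. In the other direction 5 rows were called though listed at 0 in baboACT. In MhcGal4 they stood at 3.34 FPKM (CG5011), 2.18 FPKM (CecA2), 1.28 FPKM (jhamt), 1.19 FPKM (the row of Gr64b to Gr64e) and 0.837 FPKM (ninaD).

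Genes that changed strongly in the same direction lay side by side in 11 runs of at least 3 measured neighbors, 40 genes in all, of which 10 runs were higher and 1 lower. The lower run held the trypsin-like proteases yip7, Jon65Aiv and Jon65Aiii, summing to 506 FPKM in MhcGal4 and 131 FPKM in baboACT. On 3L, from 9369518 to 9392350, Hsp26, Hsp67Ba, Hsp23, Hsp27 and CG4080 rose by 1.29 to 3.05 on the log2 scale. The cuticle genes Lcp65Ag2, Lcp65Ag1, Lcp65Af (q = 0.0147 in the authors' deposited table) and Lcp65Ae formed a further run, with sums of 57.8 and 489 FPKM. Ance, the fly angiotensin-converting enzyme, rose with its neighbors CG16884 and CG16885, by 1.04 to 2.01, though these 3 genes have only 2 loci between them. On X, CG12539, CG14406, CG9509, CG9512 and CG9521 rose by 1.14 to 4.01, but the table gives them 1 shared locus, so their fragments may not be fully separate. The other runs were CG11034 to bchs, CG7465 to CG13722, CG12310 to CG18649 (also 1 shared locus), CREG to CG42798, the glue genes, and rl, CG40191 and Yeti.

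That last run lies in heterochromatin, the compact part of the genome, and over all levels a larger share of genes rose there than on the arms. Of the 7908 genes on the euchromatic arms 28.5% rose. On chromosome 4, a small chromosome packed like heterochromatin, 50 of 67 rose and 5 fell, with a median of 0.50. Of 33 genes on the table's heterochromatic scaffolds of chromosomes 2 and 3, 23 rose and 2 fell, with a median of 0.37, whereas 0 of 6 on that of X were called. The MAP kinase gene rl rose from 43.5 to 95.0 FPKM (1.13), CG40198 from 44.1 to 176 FPKM (1.99) and Yeti from 96.1 to 195 FPKM (1.02). These genes are more abundant than most, with a median of 27.8 FPKM on the heterochromatic scaffolds and 34.4 FPKM on chromosome 4 against 12.7 FPKM on the arms. Among genes of 10 to 100 FPKM alone, 73.9% of 23 rose on the scaffolds, 80.0% of 45 on chromosome 4 and 36.2% of 3831 on the arms. At 1 to 10 FPKM 0 of 7 scaffold genes rose, with a median of -0.22, against 18.6% of 3300 on the arms. The difference was not tested.

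**Figure D5:**
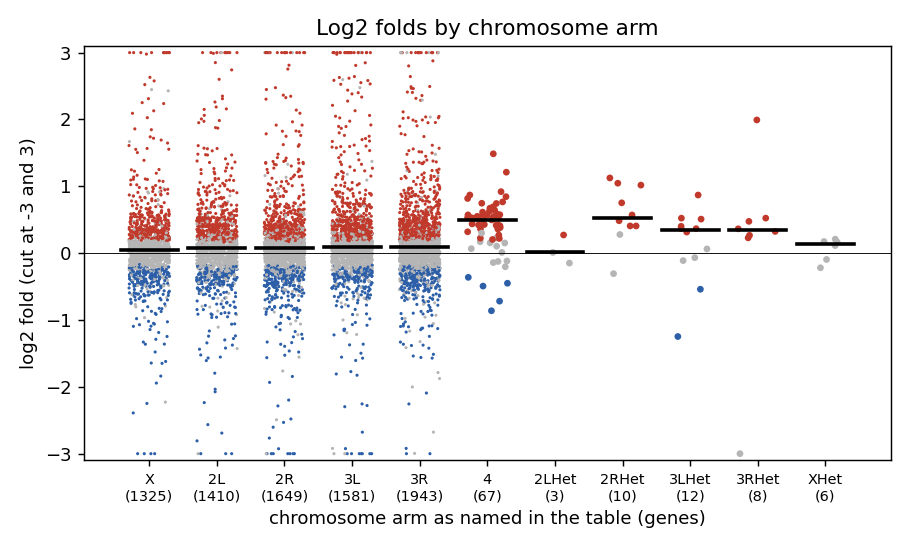
Log2 fold change (baboACT over MhcGal4, values beyond -3 and 3 drawn at those limits) of each gene tested, by chromosome arm as named in the table with the number of genes, and a bar at each median. Red genes were called higher, blue lower and grey neither; the medians of the 5 large arms lie between 0.05 and 0.09, that of chromosome 4 at 0.50 and that of 2RHet at 0.53.

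The other experiment of the series compared carcasses mutant in the gene of the Smad that Baboon activates, genotype Smox(Smad2)F4/Y, with w1118 carcasses, 3 libraries each, and shares no sample with this one. Those larvae grew on yeast paste with no 12 h at 30 °C in their labels, so its values are set side by side and levels are not compared. Of 2289 genes that rose with activated Baboon and were measured in both, 65.7% were called lower in smox, where 40.4% of all genes measured in both were. Of 1141 that fell, 38% were called higher in smox, against 17.9% of all. These overlaps are 48.0% of the genes lower in smox and 31.2% of those higher in smox. Neither difference was tested. Proteasome core genes went 13 up of 13 here and 13 down of 13 there, V-ATPase genes 15 up of 18 here and 17 down of 18 there, and glue genes 11 up of 14 here and 9 down of 10 there. The ligand gene daw fell here and rose there, from 2.24 to 18.0 FPKM (3.01). On the 2RHet scaffold 8 of 10 genes rose here and 11 of 11 fell there, with a median of -1.03. Other lists did not mirror: midgut genes fell in both (5 of 11 here, 7 of 10 there), ribosomal proteins fell in 74 of 85 rows here and in 12 of 85 there. Small heat shock genes, 6 up of 9 here, went 3 up and 2 down of 9 there.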

How the data were processed

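RNA sequencing of larval carcass was summarised by the submitters with Cufflinks and Cuffdiff, per the submitters' processing notes, in versions not given there. The authors deposited 1 FPKM per gene and group, over 3 libraries each, with a p-value and a q-value per gene, per the file headers. The aligner, the annotation, the strand setting and the genome build are not stated in these sources, so coordinates are those of the table. FPKM divides by length and by mapped fragments. No count per library is in that table, so depth cannot be recovered from it: 32.1% and 31.4% of low values fell near multiples of a common unit, where 20% would by even spread. A fit with limma, foreseen in the design, was replaced by the authors' own q because the table holds no value per library.

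Log2 ratios, list medians and counts were computed with Python 3.11.15, pandas 2.3.3 and numpy 2.4.6 and tested on simulated data. A row had to have a unique name, both FPKM above 0 and a mean of at least 1. Calls used a q under 0.05. The 264 measured rows with several gene names were kept as 1 row. Gene lists were matched by symbol and synonym, and 4 synonym matches that pointed to other genes were left out. Named genes were those of the Activin list, the 10 largest called folds each way, the 10 most abundant called genes past 1 on the log2 scale each way, up to 4 members with the lowest q and the most abundant member of each list, and runs of at least 3 neighbors. Members and lists were chosen with earlier results of these data known. Alternatives were another pseudocount, minimum, q threshold and scaling. No batch is given in the labels.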

Additional observations from a re-analysis of the deposited data

How the results depend on the processing

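The counts of genes called higher and lower, 2330 and 1182, were within 1.5 times of those under other thresholds and filters: 1882 and 864 at a q under 0.01, 2369 and 1217 with no minimum FPKM, 2050 and 957 at a mean FPKM of at least 5, and 2333 and 1182 with repeated names kept. Of 3 alternatives chosen after seeing the data, rows of 1 gene name gave 2262 and 1143, and a sign kept after quantile normalization gave 2295 and 1177. Requiring at least a 1.5-fold change left 773 higher and 328 lower, since most changes were small. Of 340 named genes 307 were called, and none of these turned the sign of its log2 fold; a pseudocount of 1 moved 82 of them and quantile normalization 248. Of the 33 not called 9 turned sign when centred on the median gene and 12 under quantile normalization. List medians that turned sign under quantile normalization were attachment (-0.0473), muscle identity (-0.0248), postsynapse (-0.0873), the TGF-beta pathway (-0.0418), insulin and TOR (-0.104), glycogen and trehalose (-0.139), large chaperones (-0.0638), chitin (-0.00729), trachea (-0.113), imaginal disc (-0.00105), immune recognition (-0.00595), histone and chromatin (-0.0764) and tubulins and motors (-0.0105). Centring on the median gene turned attachment (-0.0139), postsynapse (-0.0152), insulin and TOR (-0.0644), glycogen and trehalose (-0.0465), trachea (-0.0574), imaginal disc (-0.00788) and histone and chromatin (-0.0389). A mean of at least 5 FPKM, which lets fewer genes enter, turned neuron and glia (0.309), replication and mitosis (0.0206) and sex and dosage (0.0522). The cause of any of these turns was not tested. No paired analysis was possible because the table gives 1 value per group. For the same reason leaving out a library could not be run, and the deposited q stands without a replicate check. Depth is unknown. The median size of a call was 0.91 on the log2 scale at 1 to 3 FPKM and 0.40 at 30 to 100 FPKM.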

Other observations

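Several genes with large changes stand outside the groups described above. cer, which encodes the cathepsin inhibitor Crammer, rose from 573 to 1543 FPKM (log2 fold change 1.43). CG5391 rose from 91.1 to 1713 FPKM (4.23) and CG15308 from 835 to 2615 FPKM (1.65). Of genes that fell, CG31789 went from 117 to 14.5 FPKM (-3.01) and CG15829, the acyl-CoA-binding protein gene Acbp6, from 72.4 to 3.66 FPKM (-4.31). mex1, a midgut transcript named for that expression, fell from 8.17 to 0.398 FPKM (-4.36, q = 0.000599 in the authors' deposited table), beside midgut markers whose summed level was 410 and 145 FPKM; their part in it was not tested. The antimicrobial cecropin gene CecA2 is listed at 2.18 FPKM in MhcGal4 and at 0 in baboACT.

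Of the 85 ribosomal protein rows 11 were not called, and those given here were chosen after their values were seen. RpS3A, on chromosome 4, stood at 3240.3 and 3394 FPKM (q = 0.554 in the authors' deposited table). RpL15, on the heterochromatic scaffold 3LHet, stood at 3207 and 3350.3 FPKM (q = 0.595 in the same table). RpL38, which lies at 403503 on 2R, stood at 3391 and 3377 FPKM (q = 0.96 in the same table). Other rows not called lay elsewhere on the euchromatic arms. Among them were RpS15Ab at 6709176 on 2R (log2 fold change 0.02, q = 0.881 in the same table) and RpS15Aa on X (-0.02, q = 0.895). RpL10Ab on 3L was a further one (-0.06, q = 0.624 in the same table). A relation between position and these values was not tested.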
